A study of Mus musculus with 6 samples.

Results

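Annexins are proteins that bind negatively charged membrane phospholipids when calcium rises, through a conserved core of annexin repeats, while the variable N-terminus sets which partner each member holds. They organise membrane traffic, seal torn plasma membrane and act outside the cell, where annexin A1 signals through formyl peptide receptors to restrain inflammation and annexin A2 on the cell surface helps to form plasmin. In the kidney they lie in tubular epithelium as well as in vessels, stroma and immune cells. The members described here are 10 mouse annexin genes, Anxa1, Anxa2, Anxa3, Anxa4, Anxa5, Anxa6, Anxa7, Anxa9, Anxa11 and Anxa13, chosen by their GENCODE symbols out of 56691 genes in the count files. All 10 had enough reads for the test, which was run on 15662 genes.

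Their mRNA was measured by stranded RNA-seq of whole kidney in a cisplatin model of chronic kidney disease. The C57BL/6 males were 9 weeks old at the start and were injected intraperitoneally 4 times, with saline in the control group and with 8 mg/kg of cisplatin, a platinum drug that damages renal tubules, in the cisplatin group. Kidneys were taken at week 7, and each of the 3 libraries in either group came from its own mouse. Counted read pairs ranged from 24111688 to 26627554 in control and from 21891855 to 25356523 in cisplatin libraries.

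Most annexin mRNAs were more abundant in the cisplatin-treated kidney, and Anxa13 moved the other way. Of the 10 members, 8 were higher, 1 was lower and 1, Anxa7, did not pass the test (edgeR's quasi-likelihood test with Benjamini-Hochberg adjustment over all tested genes, threshold 0.05). Over all tested genes 24.5% were higher and 22.8% lower. All cisplatin libraries stood above all control libraries for 8 members, against 30.2% of all tested genes, and below for 1 member, against 27.6%. The median log2 fold change of the members was 0.89, beside 0.05 over all tested genes. Anxa1, Anxa2 and Anxa3 rose by more than 2-fold. The exact two-sided permutation test gave p = 0.1 for each of the 9 separated members, the smallest value that 3 mice against 3 allow. In whole tissue, more cells that make an mRNA and more of that mRNA per cell cannot be told apart.

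**Figure D1:**
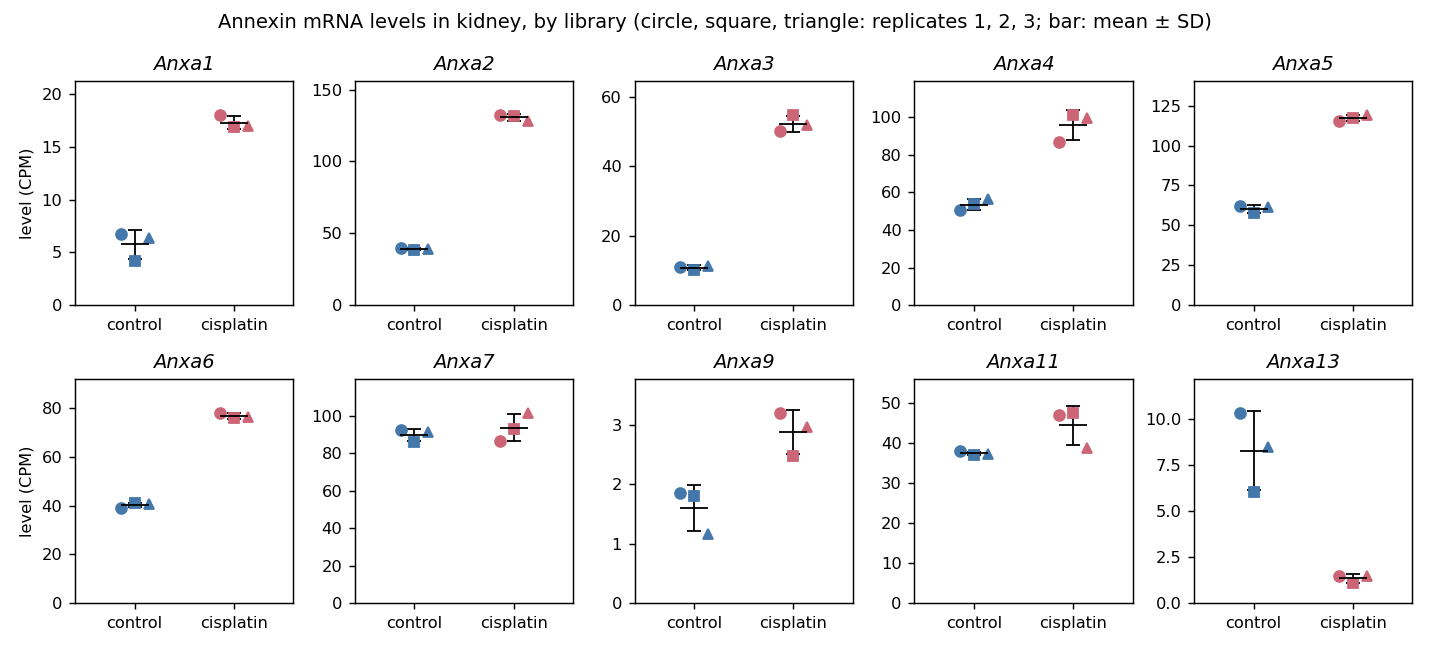
Level of each annexin mRNA (vertical axis, CPM scaled with TMM factors, from 0) in 3 control and 3 cisplatin kidneys. Points are single libraries, with circles, squares and triangles for replicates 1, 2 and 3, and bars give the mean ± SD. The groups overlap for Anxa7 alone, and the cisplatin points lie below the control points for Anxa13 alone.

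Sequences upstream of the annotated start sites were read for the members that rose most, for a member that rose less and for the one that did not pass the test. The promoter table (RefSeq, mouse build GRCm38.p6, an older build than the one the reads were aligned to) matched 7 of the 10 members with 10 start sites. Anxa3, Anxa6 and Anxa13 have no entry in it. The 250 bases before the start site are given in the direction of transcription, and capitals mark matches on either strand to the TATA box TATAAA, the CCAAT box, the GC box GGGCGG, the AP-1 site TGANTCA or the decamer bound by p53. The windows are chr19:20390672-20390921, minus strand, for Anxa1, chr9:69453433-69453682, plus strand, for Anxa2, chr3:36475888-36476137, minus strand, for Anxa5 and chr14:20479942-20480191, minus strand, for Anxa7.
Anxa1: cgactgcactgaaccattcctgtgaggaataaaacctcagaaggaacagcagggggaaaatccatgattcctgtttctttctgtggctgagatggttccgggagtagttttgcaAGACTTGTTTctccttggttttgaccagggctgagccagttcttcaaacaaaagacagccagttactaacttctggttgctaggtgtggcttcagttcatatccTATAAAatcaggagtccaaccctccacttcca
Anxa2: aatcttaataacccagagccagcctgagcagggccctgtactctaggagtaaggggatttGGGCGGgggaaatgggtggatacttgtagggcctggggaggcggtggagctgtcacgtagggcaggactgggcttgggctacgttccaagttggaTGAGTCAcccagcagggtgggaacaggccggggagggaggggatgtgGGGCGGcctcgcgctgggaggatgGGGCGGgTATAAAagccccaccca
Anxa5: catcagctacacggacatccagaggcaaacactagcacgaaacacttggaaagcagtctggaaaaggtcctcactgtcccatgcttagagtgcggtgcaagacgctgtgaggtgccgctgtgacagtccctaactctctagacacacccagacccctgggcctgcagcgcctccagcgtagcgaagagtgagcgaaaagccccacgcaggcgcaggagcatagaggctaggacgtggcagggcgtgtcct
Anxa7: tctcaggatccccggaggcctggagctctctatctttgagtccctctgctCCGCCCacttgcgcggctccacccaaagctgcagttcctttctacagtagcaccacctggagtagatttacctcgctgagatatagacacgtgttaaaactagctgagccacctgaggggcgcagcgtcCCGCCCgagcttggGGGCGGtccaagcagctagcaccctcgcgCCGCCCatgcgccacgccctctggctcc

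The Anxa1 window holds a TATA box from -32 to -27 and a p53 decamer from -136 to -127, counted from the start site. The Anxa2 window holds a TATA box from -17 to -12, 3 GC boxes and an AP-1 site, read as TGAGTCA, from -95 to -89. The Anxa5 window holds none of the 5 motifs. The Anxa7 window holds 4 GC boxes and no TATA box. Among all 32851 promoters of the table, 12.4% hold TATAAA, 32.7% GGGCGG, 6.75% TGANTCA and 7.13% the p53 decamer. CCAAT, which stands in 33.8% of them, is in none of the 10 annexin windows. Of these 10 windows, TATAAA is in 2, GGGCGG in 4, TGANTCA in 1 and the p53 decamer in 1. Anxa4 and Anxa9 were also higher after cisplatin, and none of their windows, which are not printed, holds any of the 5 motifs. The Anxa11 window holds 3 GC boxes, and a further Anxa7 window holds 1. Whether the motifs go with the changes in level was not tested. The G and C content of the printed windows was 46.0% for Anxa1, 62.4% for Anxa2, 58.8% for Anxa5 and 62% for Anxa7. The median over the table was 52.4%. These matches describe letters, and binding of any factor was not measured here.

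Anxa2 rose by 3.34-fold with little spread between mice. Annexin A2 pairs with the small S100 protein p11, the product of S100a10, and the gene lies on the plus strand of chromosome 9 from 69360542 to 69399077 (GRCm39, as for all positions that follow). Its level was 40.1, 38.5 and 38.9 CPM (read counts relative to the library size after TMM scaling) in control kidneys 1, 2 and 3. In cisplatin kidneys it was 132, 132 and 128 CPM. The groups were far apart, and replicates differed by a coefficient of variation of 2.13% in control and 1.73% in cisplatin kidneys, where counting error alone gives 3.43% and 1.67%. The log2 fold change was 1.74 (standard error, SE, 0.0801, edgeR adjusted p = 9.2e-08).

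Anxa1, the glucocorticoid-responsive annexin that restrains leukocytes, rose by 2.98-fold from a low level. The gene lies on the minus strand of chromosome 19 from 20350792 to 20368374. It was measured at 6.73, 4.19 and 6.40 CPM in the control kidneys and at 17.98, 16.8 and 17.0 CPM in the cisplatin kidneys. Control replicate 2 was the lowest, and all cisplatin libraries stood above all control libraries. The log2 fold change was 1.57 (SE 0.154, edgeR adjusted p = 1.7e-05).

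Anxa3 had the largest rise of the family, 4.83-fold. The gene lies on the plus strand of chromosome 5 from 96940544 to 96993828, and its product has been described in the regeneration of epithelia and the growth of vessels. The control kidneys gave 11.1, 9.98 and 11.3 CPM, the cisplatin kidneys 49.97, 54.6 and 51.9 CPM. No cisplatin library came near the control range. With a log2 fold change of 2.27 (SE 0.0921, edgeR adjusted p = 5.4e-08), Anxa3 ranked 270 among 15662 genes ordered from the largest rise, ahead of Anxa2 at 513 and Anxa1 at 635.

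Anxa4, Anxa5 and Anxa6 rose by amounts close to each other, between 1.79-fold and 1.94-fold. Annexin A5 is the protein used to stain dying cells, since it binds phosphatidylserine once this lipid reaches the outer face of the membrane. Its mRNA, from the minus strand of chromosome 3 (36503072 to 36530126), was at 62.4, 57.7 and 61.2 CPM in control and at 115, 118 and 119 CPM in cisplatin kidneys. The log2 fold change was 0.96 (SE 0.0804, edgeR adjusted p = 6.1e-06). Anxa6, whose product carries more annexin repeats than any other member and binds the Ras regulator encoded by Rasa1, comes from the minus strand of chromosome 11 (54869654 to 54924305). It stood at 39.1, 41.0 and 40.6 CPM in control and at 78.0, 75.9 and 76.3 CPM in cisplatin kidneys, with a log2 fold change of 0.93 (SE 0.0770, edgeR adjusted p = 5.5e-06). Replicates of Anxa6 differed by 2.39% in control and 1.49% in cisplatin kidneys, less than the counting error of 3.39% and 2.19%. Anxa4 is typical of epithelial cells and comes from the minus strand of chromosome 6 (86713675 to 86771064). The control kidneys had 50.4, 53.7 and 56.3 CPM of it and the cisplatin kidneys 86.7, 101 and 99.5 CPM, with cisplatin replicate 1 the lowest of its group and still above every control. Its log2 fold change was 0.84 (SE 0.0920, edgeR adjusted p = 3.7e-05).

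The annexins of vesicle traffic, Anxa7 and Anxa11, moved little. Annexin A7 (synexin) fuses membranes during secretion, and its gene lies on the minus strand of chromosome 14 from 20505328 to 20530201. Anxa7 had 92.3, 86.3 and 91.2 CPM in control and 86.9, 93.0 and 102 CPM in cisplatin kidneys. The groups overlapped. The log2 fold change was 0.061 (SE 0.0885, edgeR adjusted p = 0.59). It turned to -0.031 when cisplatin replicate 3 was left out. Scaled by library totals instead, it was 0.48, which is also the median of all tested genes under that scaling. Anxa11, on the plus strand of chromosome 14 from 25842547 to 25887229, links RNA granules to lysosomes. It was at 37.96, 37.1 and 37.2 CPM in control and at 47.1, 47.6 and 38.8 CPM in cisplatin kidneys. Cisplatin replicate 3 lay just above the controls. The log2 fold change was 0.25 (SE 0.0950, edgeR adjusted p = 0.049), and this call was lost in 11 of 15 alternative settings, DESeq2 and limma-voom among them.

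Anxa13, the member found mainly in epithelia of the intestine and the kidney, was the only one that fell. The gene lies on the minus strand of chromosome 15 from 58202792 to 58261129. Its counts were 246, 124 and 176 read pairs in control and 43, 32 and 34 in cisplatin libraries, or 10.3, 6.04 and 8.46 against 1.48, 1.07 and 1.48 CPM. The control libraries were spread widely, with a coefficient of variation of 26.0% where counting error gives 7.41%, yet the lowest of them stood well above every cisplatin library. The level was 6.19-fold lower after cisplatin (-2.63 on the log2 scale, SE 0.227, edgeR adjusted p = 7.3e-06), at rank 142 of 15662 from the largest fall.

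Anxa9, an annexin whose core has lost the usual calcium sites, was the least abundant member in control kidneys. The gene lies on the minus strand of chromosome 3 from 95201207 to 95214770. Libraries held 24 to 93 counts of it, or 1.85, 1.80 and 1.15 CPM in control and 3.20, 2.48 and 2.97 CPM in cisplatin kidneys. The groups did not overlap, and the log2 fold change was 0.84 (SE 0.214, edgeR adjusted p = 0.0082). Exons of Mindy1 on the opposite strand share 879 bases (19.3%) with those of Anxa9, and 331 counts fell on the strand opposite to Anxa9 over the 6 libraries. Those opposite counts were 56, 45 and 57 in control and 58, 61 and 54 in cisplatin libraries. For the other 9 members the opposite strand held 0.537% or less of the counts.

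Beyond these members, the annexin genes Anxa8 and Anxa10 were looked up. Anxa8 had 0.799, 0.682 and 0.529 CPM in control and 0.792, 0.838 and 0.654 CPM in cisplatin kidneys, with a log2 fold change of 0.19 (SE 0.276, edgeR adjusted p = 0.60). The groups overlapped at this low level. Anxa10 had no count in any of the 6 libraries, and a count of 0 allows up to 3 counts per library by counting error.

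**Figure D2:**
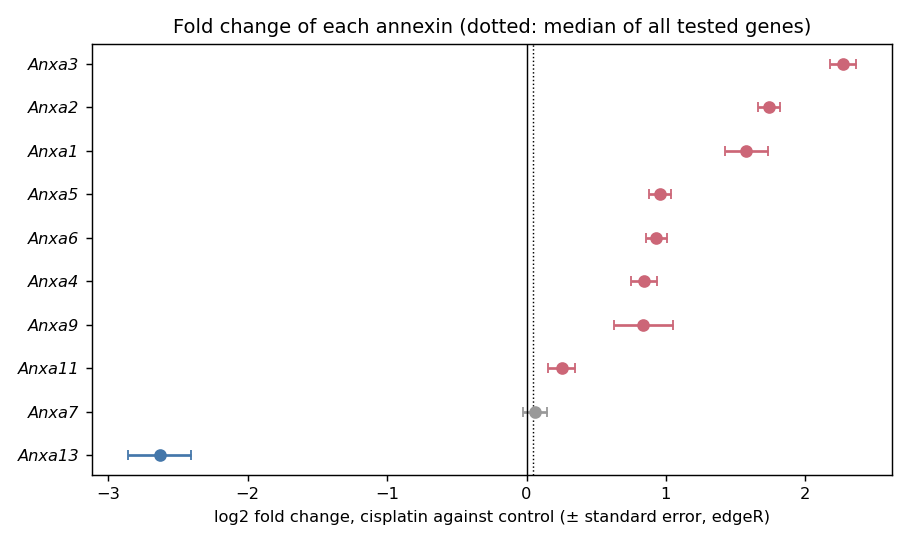
Log2 fold change of each annexin in cisplatin against control kidney (horizontal axis, edgeR, n = 3 each; bars are standard errors), ordered from the largest rise to the fall of Anxa13. Red members were higher, the blue one was lower and the grey one did not pass the test, and the dotted line marks the median of all tested genes at 0.05.

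The make-up of annexin mRNA shifted from Anxa7 towards Anxa2. To compare genes with each other, counts were divided by the kilobases of merged exons and scaled to the same total over the tested genes of each library (TPM units), and each member was expressed as a share of the summed level of the 10, which no library scaling affects. On this per-length scale Anxa7 held 25.3% ± 0.0914 (SD, n = 3) of the sum in control and 14.1% ± 0.974 (SD, n = 3) in cisplatin kidneys. Anxa2 held 14.3% ± 0.350 (SD, n = 3) in control and 25.6% ± 0.731 (SD, n = 3) in cisplatin kidneys. For both, the groups were separate (exact two-sided permutation test, p = 0.1, the smallest possible here). The share of Anxa3 went from 3.19% ± 0.107 to 8.26% ± 0.248 and that of Anxa1 from 3.38% ± 0.709 to 5.43% ± 0.292 (SD, n = 3 each), again without overlap. Anxa11 went from 8.85% ± 0.249 to 5.63% ± 0.652 and Anxa13 from 4.35% ± 1.011 to 0.381% ± 0.0709 of the sum (SD, n = 3 each), without overlap. With the longest transcript as the length, the share of Anxa13 was 2.23% in control and 0.191% in cisplatin kidneys. Anxa4, with 15.9% ± 1.07 in control and 15.2% ± 0.994 in cisplatin kidneys, overlapped between groups, as did Anxa6 and Anxa9. The summed level of the 10, before any TMM factor, was 91.4 ± 5.85 TPM in control and 230 ± 27.5 TPM in cisplatin kidneys (SD, n = 3 each). With TMM factors, the members together made up 336 to 353 CPM in control and 619 to 642 CPM in cisplatin kidneys.

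Ordered by level per exon length, the control kidney had Anxa7 first, followed by Anxa4, Anxa2, Anxa5, Anxa6, Anxa11, Anxa13, Anxa1, Anxa3 and Anxa9. Neighbours whose ranges overlapped in control were Anxa2 and Anxa5, Anxa13 and Anxa1, and Anxa1 and Anxa3. With the length of the longest transcript, Anxa3 came before Anxa1 and Anxa1 before Anxa13 in control, and the cisplatin order did not change. In the cisplatin kidney the order was Anxa2, Anxa4, Anxa7, Anxa5, Anxa6, Anxa3, Anxa11, Anxa1, Anxa9 and Anxa13. There the ranges of Anxa4 and Anxa7, of Anxa7 and Anxa5, of Anxa5 and Anxa6, and of Anxa11 and Anxa1 overlapped. The level of Anxa2 per length lay between 49.9 and 66.9 TPM in cisplatin kidneys and above that of every other member.

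**Figure D3:**
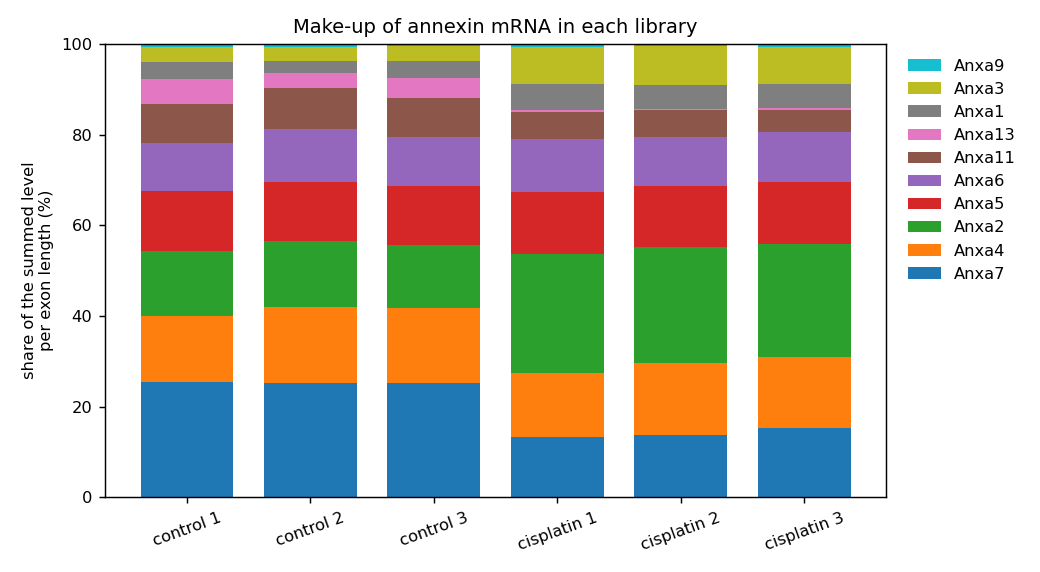
Share of each annexin (vertical axis, % of the summed level of the 10 members per exon length, from 0 to 100) in each library. The lowest segment, Anxa7, falls from 25.3% in control to 14.1% in cisplatin kidneys on average, and the green Anxa2 segment widens from 14.3% to 25.6%.

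The mRNAs of several proteins that bind annexins rose too. Of 8 listed partner genes, 7 were tested, of which 4 were higher, none was lower and 3 did not pass the test, with a median log2 fold change of 0.96. This count and those of the lists that follow stand beside the 24.5% higher and 22.8% lower of all tested genes. S100a10, which encodes the p11 subunit of the annexin A2 complex, was at 44.6, 34.5 and 41.3 CPM in control and at 80.5, 82.9 and 86.5 CPM in cisplatin kidneys. The groups were separate, with a log2 fold change of 1.05 (SE 0.102, edgeR adjusted p = 1.6e-05). Per exon length, the ratio of S100a10 to Anxa2 was 0.805, 0.649 and 0.770 in control and 0.441, 0.455 and 0.489 in cisplatin kidneys, without overlap (exact two-sided permutation test, p = 0.1, the smallest possible here). With the length of the longest transcript the mean ratio was 0.465 in control and 0.290 in cisplatin kidneys.

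S100a6, a small calcium-binding protein that holds annexins A2 and A11 among others, had the largest rise of the list. It went from 22.6, 17.7 and 19.96 CPM in control to 181, 239 and 175 CPM in cisplatin kidneys, a log2 fold change of 3.30 (SE 0.147, edgeR adjusted p = 7.4e-08). Its cisplatin libraries differed among themselves by more than those of Anxa2, and all stood far above the controls. S100a11, the partner of annexin A1, had a log2 fold change of 1.52 (edgeR adjusted p = 2.6e-06). Ahnak, a giant scaffold that binds the annexin A2 and p11 complex, had one of 0.96 (edgeR adjusted p = 0.00046) and ran from 414 CPM in cisplatin replicate 3 to 661 CPM in cisplatin replicate 1. The other tested partners did not pass the test: Sri (sorcin, which binds annexins A7 and A11) had a log2 fold change of 0.18, Pdcd6 (ALG-2, which binds the same annexins) one of -0.16 and Rasa1 one of 0.13. S100a4, another partner of annexin A2, was not tested, with 0.131 CPM or less in every library.

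Of 11 other S100 genes, 7 were tested, of which 6 were higher and S100a1 did not pass the test, with a median log2 fold change of 0.51. Among the higher ones were S100a14 (1.93), S100a9 (0.97) and S100a16 (0.50). S100a9 is also among the neutrophil markers given further on. The formyl peptide receptors, through which annexin A1 signals, could not be tested. Fpr1 and Fpr2 had 3 counts or fewer in every library and Fpr3 had none.

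Plasmin formation is the surface pathway of annexin A2. Of 9 listed genes, 7 were tested, with 4 higher, 1 lower (2 without control replicate 1) and 2 not past the test, and the median log2 fold change was 0.85. Among the higher genes were the protease inhibitor gene Serpine2 (2.15), the urokinase receptor gene Plaur (1.98) and the tissue plasminogen activator gene Plat (0.85). Serpinf2, which encodes the plasmin inhibitor α2-antiplasmin, was lower, at 294, 304 and 290 CPM in control and 21.5, 22.0 and 39.9 CPM in cisplatin kidneys (-3.42 on the log2 scale, SE 0.215, edgeR adjusted p = 8.0e-07). All its cisplatin libraries lay far below the controls. Plau, urokinase itself, did not pass the test at 0.24.

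Membrane repair and the recognition of dying cells are the settings in which annexins A1, A2, A5 and A6 are best known. Of 17 listed repair genes, 16 were tested, with 8 higher, 2 lower and 6 not past the test, and a median log2 fold change of 0.30. Myof, a dysferlin relative that fuses membranes, rose from 18.9, 20.5 and 20.9 CPM to 143, 133 and 90.7 CPM, a log2 fold change of 2.61 (SE 0.158, edgeR adjusted p = 6.2e-07). The calpains Capn1 (0.80) and Capn2 (0.67), calcium-activated proteases, were higher, and the membrane-shaping ATPase genes Ehd1 (-0.53) and Vps4a (-0.27) were lower. Leaving out any 1 of the 3 control libraries lowered the number of higher repair genes from 8 to 4 or 5. In those fits the higher genes over all tested genes fell as well. They went from 3841 of 15662 to between 3000 and 3079 of 16055 to 16189. The 2 lower genes became 1 in 5 of the 6 fits that left out a library and 3 without cisplatin replicate 3.

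Of 20 listed genes that expose, hide or recognise phosphatidylserine, the lipid that annexin A5 binds, 19 were tested. Here 12 were higher, 4 lower and 3 not past the test, with a median log2 fold change of 0.48. Lower genes, whose share was close to that of all tested genes, numbered 2 without control replicate 1, control replicate 2 or cisplatin replicate 2. Among receptors and bridging proteins, Havcr1 (kidney injury molecule 1, also a marker of injured tubule) was at 0.883, 0.779 and 1.39 CPM in control and at 100, 102 and 113 CPM in cisplatin kidneys, and Axl (1.42) and its ligand gene Pros1 (1.42) were higher as well. The flippases that return the lipid to the inner face went both ways. Atp11a had a log2 fold change of -2.83 (SE 0.104, edgeR adjusted p = 2.9e-08) and their shared subunit gene Tmem30a one of -0.89. Atp8a1 (0.68) was higher and Atp11b (-0.11) did not pass the test. Mertk, a receptor of the same family as Axl, was lower at -0.27.

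Annexin A1 is also known as an inhibitor of phospholipase A2 and as a target of glucocorticoids. Of 12 genes of phospholipases A2 and eicosanoid synthesis, 8 were tested, with 5 higher, 1 lower and 2 not past the test, and a median log2 fold change of 0.64. Pla2g4a (0.99), Alox5ap (1.34), Alox5 (2.80, at 2.51 CPM or less) and Ptgs1 (0.61) were among those higher, and Pla2g6 (-0.76) was lower. Of 6 genes for the glucocorticoid receptor and its targets, 4 were higher and 2 did not pass the test, with a median of 0.86. The targets Per1 (1.96), Tsc22d3 (0.997) and Fkbp5 (0.72) were higher, while the receptor gene Nr3c1 had a log2 fold change of -0.17 (edgeR adjusted p = 0.12). Zbtb16, the other target called, was at 10.2 CPM in control replicate 1 and at 3.90 and 2.98 CPM in the other control kidneys.

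**Figure D4:**
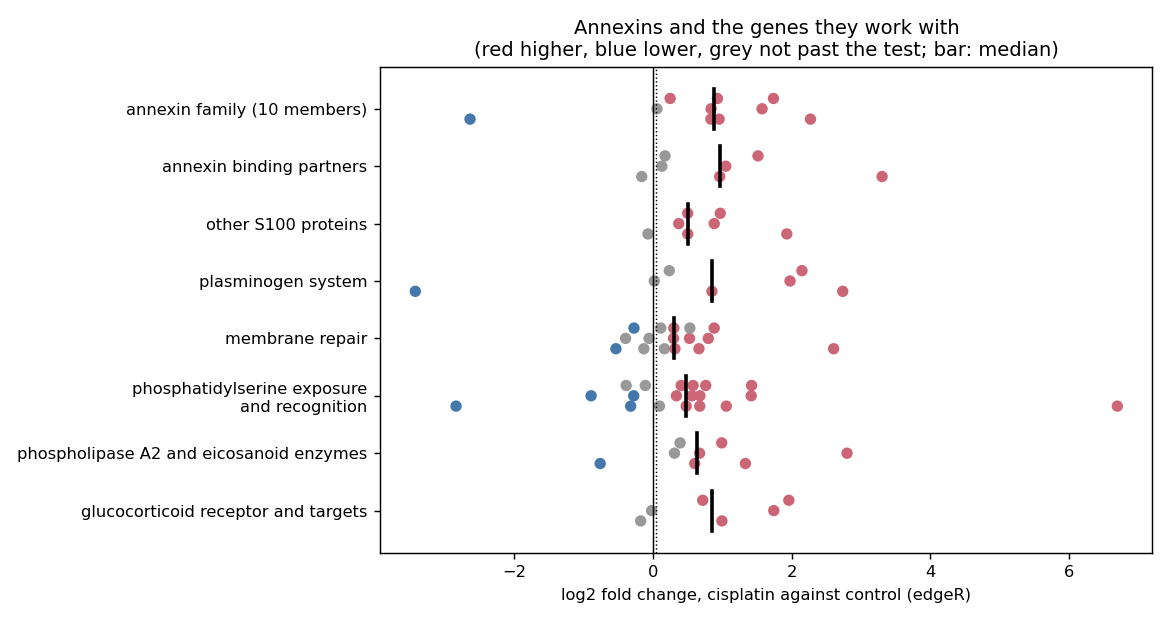
Log2 fold change in cisplatin against control kidney (horizontal axis, edgeR, n = 3 each) of the 10 annexins and of the tested genes of 7 lists of genes that work with them, 1 dot per gene. Red genes were higher, blue genes lower and grey genes not past the test, black bars are list medians, from 0.30 for membrane repair to 0.96 for the binding partners, and the dotted line is the median of all tested genes.

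Markers of several kidney cell types moved alongside the annexins. Of 10 proximal tubule markers, 9 were lower and none was higher, and their summed level was 30407 to 30808 CPM in control and 4323 to 4601 CPM in cisplatin kidneys. Most of that sum in control was Kap, an androgen-regulated gene, at 21207 ± 440 CPM (SD, n = 3) against 280.2 ± 125 CPM (SD, n = 3) in cisplatin kidneys, and the median log2 fold change of the markers was -1.14. All 9 markers of injured tubule were higher, from a sum of 411 to 449 CPM in control to 2603 to 2873 CPM in cisplatin kidneys. Most of that sum was Spp1, at a mean of 237 CPM in control and 1945 CPM in cisplatin kidneys. The median log2 fold change of these markers was 2.87. Macrophage markers (8 of 9 higher) summed to 91.1 to 113 CPM in control and 279 to 337 CPM in cisplatin kidneys. Fibroblast and myofibroblast markers (6 of 8 higher) summed to 239 to 289 CPM and 446 to 713 CPM. Cisplatin replicate 1 had the highest fibroblast sum, 713 CPM. Of 8 neutrophil markers, 3 were tested and 2 were higher, their sum was 2.40 to 2.53 CPM in control and 4.17 to 4.46 CPM in cisplatin kidneys, and the defining genes Ly6g, Mpo and Elane had no count in any library. Collecting duct markers (5 of 8 higher) summed to 223 to 245 CPM in control and 304 to 354 CPM in cisplatin kidneys. Endothelial markers (3 of 7 lower, none higher) summed to 297 to 307 CPM and 216 to 257 CPM. Of 4 thick ascending limb markers, 2 were higher and 1 was lower. Of 7 T cell markers, 4 were tested and 3 were higher. The sum of the 7 was low, at 2.12 to 2.77 CPM in control and 4.10 to 5.23 CPM in cisplatin kidneys. Among podocyte markers 1 of 5 was higher, and among urothelium markers 2 of 5. No fat marker (4 tested) and no B cell marker (1 tested) passed the test. The part of these cell types in the annexin results was not tested.

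The genes whose pattern over the 6 libraries came closest to each annexin were listed by the root mean square distance of centred log2 CPM, which is a description over few libraries that the contrast between the groups dominates. Closest to Anxa3 were Lgals3 (distance 0.0573), which encodes galectin-3, Apoe (0.0607), which encodes apolipoprotein E, and Scin (0.0898), an actin-severing protein. Anxa2 lay closest to Cyp2d22 (0.0569), the complement gene C1qb (0.0570) and the epithelial transcription factor gene Ehf (0.0659), and C1qb is also among the macrophage markers. For Anxa1 these were Zcchc18, Map3k21 and Apcdd1, at distances of 0.0977 to 0.101. The nearest genes were Tsc22d1, Nt5c3b and Ap1m2 for Anxa4, Crlf2, Ntn4 and H3c7 for Anxa5, and the tubulin gene Tubb5, the keratin gene Krt8, also a marker of injured tubule, and Ntn4 for Anxa6. Anxa7 was matched by Nup88 and Bzw1 among others, Anxa9 by Loxl3, Eya4 and Slain1, and Anxa11 by Atg7, Dock1 and Thrap3. Anxa13 had looser matches beyond its first, with Nat8f7 at 0.0885, Tc2n at 0.137 and Tyw3 at 0.152.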

How the data were processed

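Kidney RNA libraries were made with a stranded kit, per the labels. After adapter trimming with Cutadapt and alignment by STAR to build mm39 (GRCm39), the authors deposited the raw, unnormalized count of read pairs per gene, once ignoring strand and once for either strand. The column of the transcript strand was used, which holds 96.7% to 97.2% of the stranded counts. The settings of STAR and its annotation release are not stated in the sources at hand. Of 56691 genes, 56017 were named and measured for exon length with GENCODE vM39. Reads outside annotated genes (4.63% to 4.86% of control pairs and 6.09% to 9.32% of cisplatin pairs) stayed out of library sizes.

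Genes were filtered with filterByExpr (minimum count 10, minimum total 15) and compared with edgeR 4.0.16 (TMM factors, quasi-likelihood test, all 6 libraries, group as the only term), with Benjamini-Hochberg adjustment at 0.05 in R 4.3.3. Control libraries had TMM factors of 0.844 to 0.894 and cisplatin libraries of 1.05 to 1.26. CPM use TMM-scaled library sizes, and log2 CPM a prior count of 2. No molecular identifiers are described, so limits from depth cover counting error only. In simulated data the fit recovered 2 of 50 genes changed 1.25-fold and 29 of 50 changed 1.5-fold. It recovered 44 of 50 at 2-fold and 50 of 50 at 4-fold. Far fewer genes were changed in the simulation than the real test called, so these rates may not carry over to it. Alternatives were DESeq2 1.42.0, limma-voom (limma 3.58.1), scaling by DESeq2 size factors, by upper quartiles or by library totals, no filter, counts that ignore the strand, no mitochondrial or 20 highest genes, a replicate block, another transcript length and leaving out each library.

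The members, the 9 pathway lists (88 genes) and the 13 marker lists were chosen with earlier results of these data known. Named genes are the members, Anxa8 and Anxa10, all binding partners, up to 3 genes per direction of each other list with the smallest adjusted p, and the 3 nearest patterns per member. S100a1, Plaur, Plau, Ptgs1, Nr3c1, Zbtb16, Fpr1, Fpr2, Fpr3, Mindy1, Atp8a1 and Atp11b, outside that rule, were named after their values were seen. So were the markers Kap and Spp1 and the neutrophil genes Ly6g, Mpo and Elane. A few genes that the rule selects are not reported here. Protein sequences were not analysed here.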

Additional observations from a re-analysis of the deposited data

How the results depend on the processing

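Of the 10 members, all but Anxa7 and Anxa11 kept their direction and their side of the threshold in 15 of 15 alternatives. The members called higher numbered 7 to 9 and the lower one stayed at 1 in all of them. Anxa11 lost its call with DESeq2 (0.22 on the log2 scale, adjusted p = 0.124), DESeq2 size factors (0.22, 0.0745) and limma-voom (0.24, 0.0597). The call was also lost with no filter (0.24, 0.0813), counts that ignore the strand (0.23, 0.0866) and without mitochondrial and the 20 highest genes (0.25, 0.0506). It was lost in 5 of the 6 fits that left out a library. Over all 6 of those fits the log2 fold change of Anxa11 ran from 0.20 to 0.31. Anxa11 kept the call without cisplatin replicate 3 (0.31, adjusted p = 0.0045). Anxa7 ran from -0.031 (adjusted p = 0.772, without cisplatin replicate 3) to 0.11 over those fits. With library totals it passed the test at 0.48 (adjusted p = 0.00095), under a scaling that moved the median of all genes to 0.48 and gave 8508 higher and 1375 lower genes.

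Genes of the pathway lists called lower, 8 in all, numbered 5 with upper-quartile factors, 3 with library totals and 5 to 10 when a library was left out (5 without control replicate 2 or without cisplatin replicate 2). Binding partners called higher numbered 7 with library totals. With the longest transcript as the length, the share of Anxa2 was 16.2% in control and 28.4% in cisplatin kidneys and that of Anxa7 27.0% in control. With strand ignored, the control shares were 14.7% for Anxa2 and 26.1% for Anxa7. The causes were not tested.

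A fit with the replicate number as a block called the same number of members, 8 higher and 1 lower, with a log2 fold change of 0.25 for Anxa11 (adjusted p = 0.0427), and changed no member's call. Same-numbered libraries deviated together with correlations of 0.133, 0.142 and 0.0997, which is not over 0.1 in every pair, and the labels give the number no meaning, so the mice were not treated as paired. All 6 libraries correlated best with their own number, a hint of pairing from the data and not from the design. Anxa9 and Anxa13 rest on few counts, and the precision of all values is limited by 3 mice per group.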
